A study of Mus musculus with 6 samples.

Results

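The genes described here are 9 of the 22180 genes measured on these arrays: Apod, Apoe, Apoc1, Apoc2, Apoc3, Apoa1, Apob, Apobr and Apom. They were chosen by name, as part of the apolipoproteins together with Apobr, a gene named for apolipoprotein B that encodes a receptor. Other apolipoproteins were measured too and are described further below as a list. The choice was made with the large CL-vehicle differences of Apod and Apoc1 in these same arrays already known. The difference of each of the 9 between the groups is therefore given as a description, with no p-value, and the count of them past the threshold is read as no evidence. Total RNA came from the stromal vascular fraction (SVF), the pellet of vessel cells, fibroblast-like progenitors, macrophages and other non-adipocytes that is left when collagenase-digested fat has shed its floating adipocytes. The fat was gonadal white adipose tissue (gWAT) of wt C57Bl/6 mice, labelled as 8-week animals. In the CL group, 3 arrays were made from mice that received CL316243 (CL), an agonist of the β3-adrenergic receptor, by i.p. injection each day for 3 days at 1 mg/kg in 0.1 ml, and in the vehicle group 3 arrays were made from mice without the drug. The labels call the arrays biological replicates but do not say whether 1 animal or a pool stands behind each, and they give no sex. The methods of the study give another duration of CL treatment, and for tissue fractionation they name female mice of another age. It stayed unclear which of these details apply to these arrays.

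Apolipoproteins are the protein part of lipoproteins, the particles that carry triglyceride and cholesterol through blood and lymph. ApoB stays with one particle for life, whereas the small exchangeable apolipoproteins of the A, C and E groups move between particles and set how lipases, transfer proteins and receptors act on them. ApoD and ApoM are of another fold, the lipocalins, which are barrel-shaped carriers of single small lipids. Liver and intestine make most of the plasma pool, and in adipose tissue ApoE and ApoC-I are known as products of macrophages and adipocytes, and ApoD as a product of fibroblasts.

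Apod stood on chromosome 16 and Apoc2, Apoc1 and Apoe stood in one cluster on chromosome 7. The largest differences were those of Apod and Apoc1. The stretch just before the start is shown for Apod. For Apoc1 none was found, and those of Apoe and Apoc2, the other measured genes of its cluster, are shown. RefSeq windows of GRCm38.p6 with 250 bases before the start were found for 7 of the 9 genes, all but Apoc1 and Apoc3. The windows printed lie on the minus strand at chr16:31314809-31315058 (Apod), at chr7:19699189-19699438 (Apoe, the first of 3 start sites) and at chr7:19677942-19678191 (Apoc2), and they are written 5′ to 3′ with matches to the searched motifs in capitals.
Apod: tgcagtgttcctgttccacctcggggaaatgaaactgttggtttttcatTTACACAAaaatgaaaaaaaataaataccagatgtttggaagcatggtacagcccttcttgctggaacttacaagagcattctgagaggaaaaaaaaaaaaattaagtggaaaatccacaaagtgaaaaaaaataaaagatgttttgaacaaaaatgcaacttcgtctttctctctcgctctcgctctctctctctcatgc
Apoe: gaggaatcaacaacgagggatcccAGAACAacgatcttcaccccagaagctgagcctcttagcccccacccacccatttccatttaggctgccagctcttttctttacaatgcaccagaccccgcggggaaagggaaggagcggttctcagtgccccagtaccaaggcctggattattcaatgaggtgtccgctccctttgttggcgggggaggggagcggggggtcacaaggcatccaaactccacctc
Apoc2: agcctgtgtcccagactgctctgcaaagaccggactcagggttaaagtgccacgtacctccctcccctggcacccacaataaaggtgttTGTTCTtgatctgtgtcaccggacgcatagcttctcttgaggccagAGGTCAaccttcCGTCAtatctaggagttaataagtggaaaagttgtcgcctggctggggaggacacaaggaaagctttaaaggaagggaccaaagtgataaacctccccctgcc
The motifs were searched on both strands and were the cAMP response element (CRE) palindrome TGACGTCA, its half-site TGACG, which also lies inside the palindrome, the nuclear receptor half-site AGGTCA, the glucocorticoid receptor half-site AGAACA, the C/EBP pattern TTNNGNAA, the TATA box TATAAA and the GC box GGGCGG. In the Apod window, whose GC content was 36.4%, the capitals mark 1 C/EBP match that begins 201 bases before the start. In the Apoe window (57.2% GC) they mark a glucocorticoid receptor half-site 226 bases before the start. In the Apoc2 window (52% GC) they mark a glucocorticoid receptor half-site, a nuclear receptor half-site and a CRE half-site, which begin 161, 115 and 103 bases before the start. Over all 32817 RefSeq windows of the same length, matches were found in 1.55% (CRE palindrome), 17.7% (CRE half-site), 14% (nuclear receptor half-site), 16.1% (glucocorticoid receptor half-site), 36.8% (C/EBP), 12.4% (TATA box) and 32.7% (GC box). Among the 7 genes with a window, 0, 1, 1, 2, 2, 2 and 0 held these motifs in the same order. The second start site of Apoe and the window of Apob held the TATA box.

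Levels are log2 values that the authors made with RMA, so a difference of 1 is a doubling, and a level can be compared between arrays but not between genes. A background level of 3.59 was set at the 95th percentile of the mean levels of 1390 smell-receptor genes, and 39.8% of all genes had a mean at or below it. Array medians over the genes tested lay at 4.29 to 4.32 with vehicle and 4.27 to 4.37 with CL. Over all probe sets they did not overlap, at 3.84 to 3.9 with vehicle and 3.74 to 3.8 with CL. Limma with Benjamini-Hochberg adjustment over all 22180 genes put 72 genes past an adjusted p of 0.05, 44 higher and 28 lower with CL. With a single array left out, 0 to 31 genes passed, and without any 1 of the CL arrays none did, while 3280 genes passed at an unadjusted p under 0.05 with all arrays. The number of arrays limits the precision, and no batch or scan date is given in the sources used here.

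In the CL-treated SVF, Apod and Apoc1 stood well above their vehicle levels, by 4.87-fold and 2.72-fold, and the other 7 genes differed by 0.64 or less on the log2 scale. Of the 9 genes, 2 were among the 72 past the threshold, against a background of 0.325% of all genes, both higher with CL (background 0.198%) and none lower (background 0.126%). This count restates the choice of the genes. Without vehicle replicate 2 only Apod remained past the threshold, and without any other 1 array neither did. The groups did not overlap for 4 of the 9 (background 19.9%), with CL above for Apod, Apoc1 and Apoc2 (background 11.2%) and below for Apoa1 (background 8.72%). The mean was higher with CL for 5 genes and lower for 4, where 50.4% of all genes had the higher mean with CL. Their median log2 difference was 0.23, and that of all genes tested was 0.002. In 6 of the 9 the log2 difference was within 0.3 of 0, as in 73% of all genes. In bulk RNA like this, fewer cells of a type and less RNA per cell cannot be told apart.

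**Figure D1:**
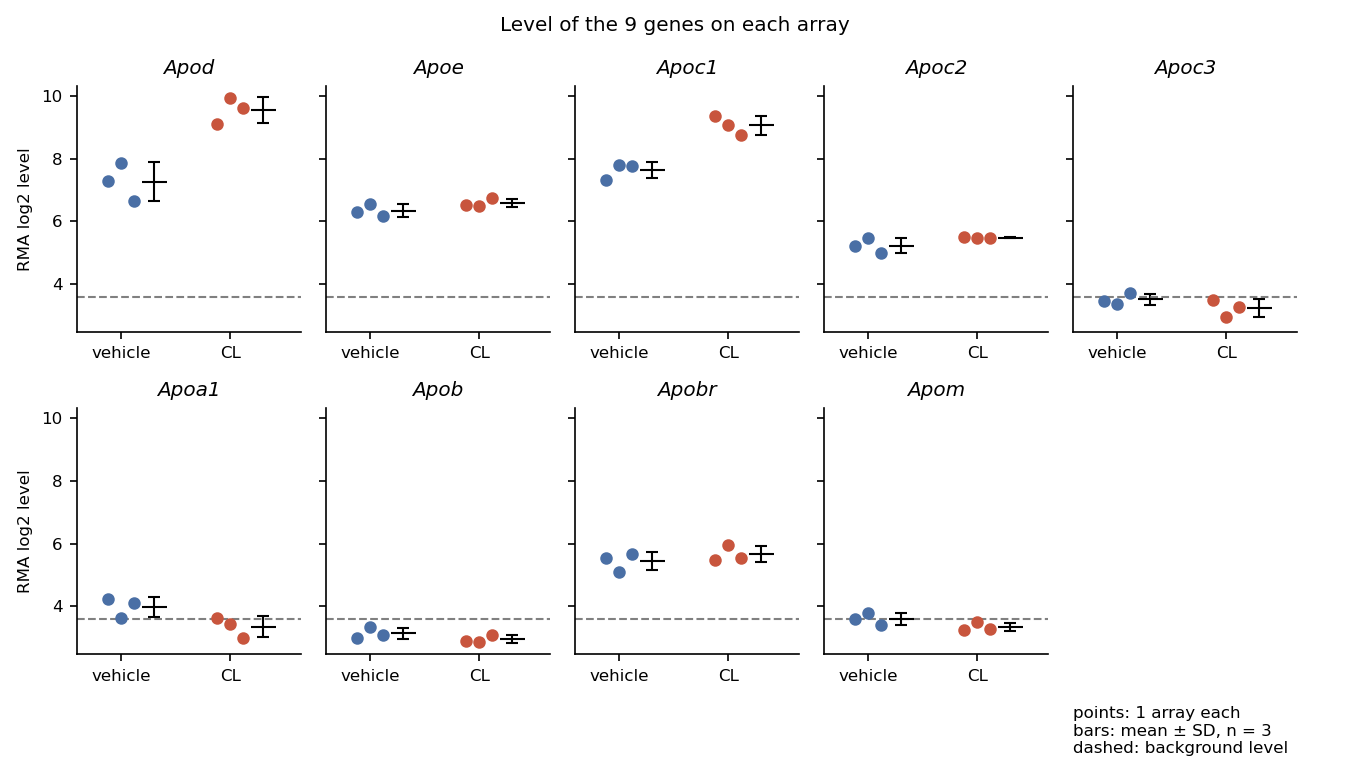
RMA log2 level (vertical axis) of each of the 9 genes on the 3 vehicle arrays (blue) and the 3 CL arrays (red), with the mean ± SD (n = 3) and the background level of 3.59 as a dashed line. Apod and Apoc1 show a clear gap between the groups, Apoe and Apobr overlap, Apoc2 and Apoa1 are parted by under 0.01, and Apoc3, Apob and Apom lie around or under the dashed line.

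Apod encodes ApoD, a secreted lipocalin that binds arachidonic acid and other small lipids. On its probe set (17329759) the vehicle arrays read 7.27, 7.87 and 6.63, and the CL arrays read 9.10, 9.93 and 9.60. Every CL array lay above every vehicle array, with a gap of 1.23 between the highest vehicle and the lowest CL array, which was about as wide as the spread of 1.24 among the vehicle arrays themselves. The mean was 7.26 ± 0.62 (SD, n = 3) with vehicle and 9.54 ± 0.42 (SD, n = 3) with CL, a log2 difference of 2.29 with a standard error of 0.32. This was the fifth largest increase of any gene tested. With 1 array left out the difference lay between 1.97 (without vehicle replicate 3) and 2.59 (without vehicle replicate 2). The SD of Apod was larger than the median SD of all genes in both groups, 0.2 with vehicle and 0.173 with CL.

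Apom encodes the other lipocalin of the set, which rides on high-density lipoprotein and carries sphingosine-1-phosphate. It read 3.58, 3.79 and 3.40 with vehicle and 3.25, 3.50 and 3.27 with CL. These values overlapped and lay around the background level, with 1 of 6 arrays above it, so its log2 difference of −0.25 (standard error 0.16) is poorly measured.

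Apoc1 encodes ApoC-I, a small exchangeable apolipoprotein that activates the plasma enzyme LCAT and inhibits lipoprotein lipase and the uptake of remnant particles. On its probe set (17487374) the vehicle arrays read 7.33, 7.79 and 7.75, and the CL arrays 9.37, 9.06 and 8.76. The groups were parted by 0.965, and the highest CL array was replicate 1, whereas that of Apod was replicate 2. The mean was 7.62 ± 0.25 (SD, n = 3) with vehicle and 9.06 ± 0.31 (SD, n = 3) with CL, a log2 difference of 1.44 with a standard error of 0.20. Apoc1 ranked 25 among the increases of all genes tested, and its difference stayed between 1.29 and 1.6 when 1 array was left out.

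Apoe encodes ApoE, the ligand through which remnant particles are taken up by cells. It read 6.28, 6.56 and 6.17 with vehicle and 6.51, 6.50 and 6.73 with CL, and the groups overlapped, since vehicle replicate 2 lay above CL replicates 1 and 2. Its log2 difference was 0.25 with a standard error of 0.16. Apoc2 encodes ApoC-II, the cofactor that lipoprotein lipase needs. It read 5.22, 5.45 and 4.97 with vehicle and 5.51, 5.46 and 5.46 with CL. The CL arrays lay above the vehicle arrays by only 0.0079, and they were far closer together (SD 0.03) than the vehicle arrays (SD 0.24). The log2 difference of Apoc2 was 0.26 with a standard error of 0.16, and it ranged from 0.14 to 0.38 when 1 array was left out.

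The 3 measured genes of the chromosome 7 cluster, which follow each other as Apoc2, Apoc1 and Apoe with Apoc4 between the first of these and Apoc1, thus differed unequally. Set against Apoe on the same array, Apoc1 stood 1.05, 1.23 and 1.57 higher with vehicle and 2.86, 2.56 and 2.03 higher with CL. The mean of these within-array gaps moved from 1.29 ± 0.26 to 2.48 ± 0.42 (SD, n = 3), a shift of 1.20. Set against Apoc2, the shift of Apoc1 was 1.18. Apoc1 was chosen with its large difference known, so both shifts restate that choice. Apoc2 minus Apoe was −1.05, −1.11 and −1.20 with vehicle and −1.0, −1.04 and −1.27 with CL, a shift of 0.02 with overlapping groups. The size of each gap depends on the probes, and its shift between the groups does not need levels of different genes to be comparable. Clptm1 and Tomm40, the genes just outside the cluster, which encode a membrane protein and the pore of the outer mitochondrial membrane, both had a log2 difference of 0.42, and their standard errors were 0.14 and 0.16. By limma their adjusted p were 0.232 and 0.268. Neither passed, and both had CL arrays above all vehicle arrays. Apoc4 was not analysed here.

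**Figure D2:**
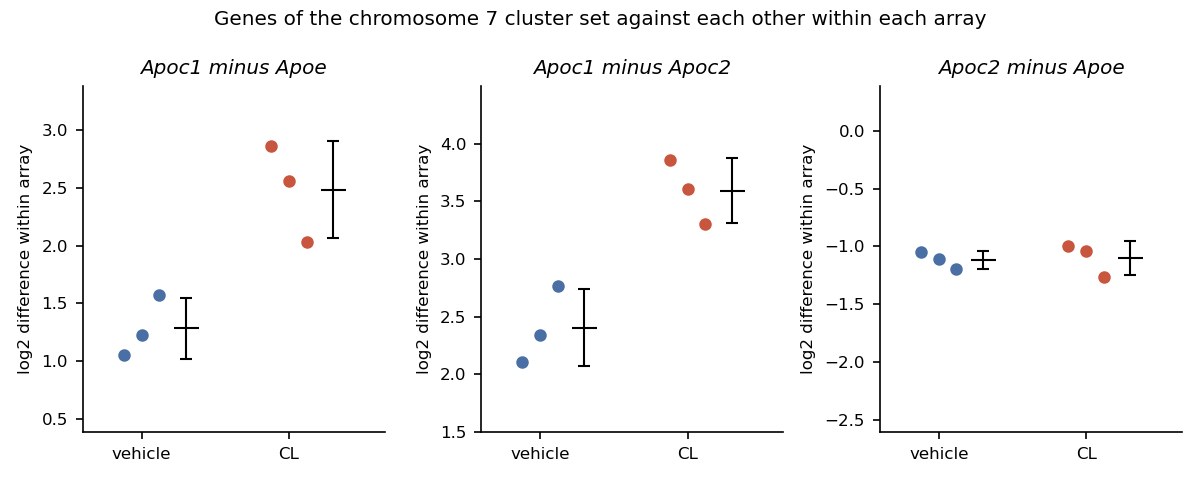
Difference in RMA log2 level between pairs of genes of the chromosome 7 cluster on the same array (vertical axis), for 3 vehicle arrays (blue) and 3 CL arrays (red), with the mean ± SD (n = 3). Apoc1, chosen with its large difference known, moved away from Apoe by 1.20 and from Apoc2 by 1.18, while Apoc2 and Apoe kept their distance within 0.02.

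Apoa1 and Apoc3 stand next to each other on chromosome 9. Apoa1 encodes the main protein of high-density lipoprotein and read 4.24, 3.62 and 4.09 with vehicle and 3.62, 3.45 and 2.98 with CL. Its groups were parted by only 0.0014, 4 of the 6 arrays lay above the background level, and the CL mean of 3.35 ± 0.33 (SD, n = 3) lay below it. The log2 difference of Apoa1 was −0.64 (standard error 0.22), a size that is poorly measured on the CL side, and it lay between −0.82 and −0.45 with 1 array left out. Apoc3, whose product inhibits lipoprotein lipase and slows the clearance of triglyceride-rich particles, read 3.45, 3.36 and 3.69 with vehicle and 3.49, 2.94 and 3.25 with CL. Only 1 of these 6 values was above background, so the log2 difference of −0.27 (standard error 0.18) says little about its RNA. Sik3, a kinase gene on the other side of Apoa1, had a log2 difference of 0.24 (limma, adjusted p = 0.518), and Apoa4, beyond Apoc3, one of −0.09 (adjusted p = 0.865) and was below background.

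Apob, on chromosome 12, encodes the structural protein of chylomicrons and of very-low- and low-density lipoproteins. It read 2.99, 3.34 and 3.09 with vehicle and 2.90, 2.85 and 3.09 with CL. No array rose above the background level, and the groups overlapped (log2 difference −0.19, standard error 0.15). Apobr, elsewhere on chromosome 7, encodes a receptor of macrophages that takes up ApoB-bearing, triglyceride-rich particles. It was well above background and read 5.53, 5.11 and 5.66 with vehicle and 5.49, 5.96 and 5.54 with CL. The groups overlapped, since CL replicate 1 lay below 2 of the vehicle arrays (log2 difference 0.23, standard error 0.20). Without vehicle replicate 2 the difference of Apobr fell to 0.07.

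**Figure D3:**
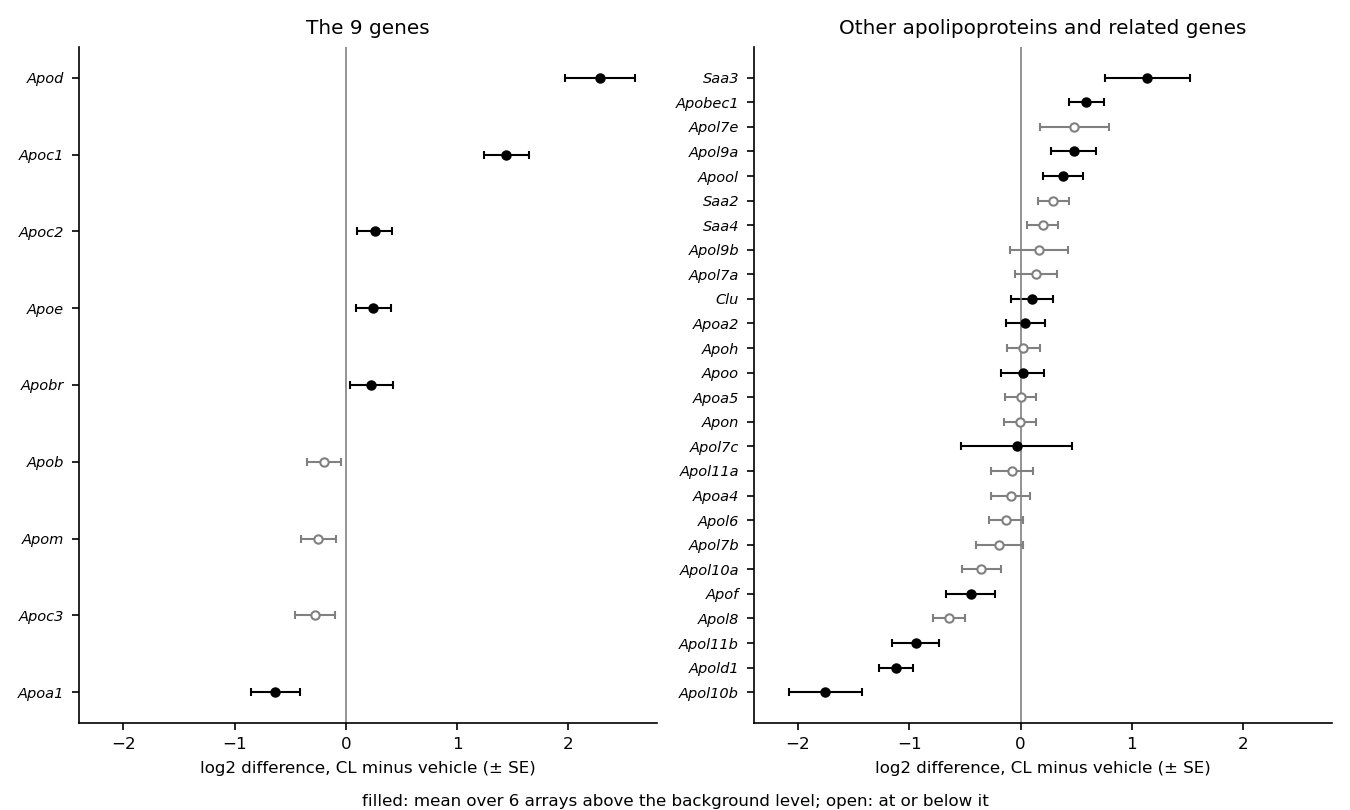
Log2 difference between CL and vehicle, with its standard error, for the 9 genes (left) and for 26 other apolipoproteins and related genes (right), with filled points for genes whose mean over 6 arrays was above the background level and open points for the rest. Apod (2.29) and Apoc1 (1.44) lie apart from the other 7 genes on the left, and Apol10b (−1.75) and Apold1 (−1.12) lie lowest on the right.

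The genes whose levels tracked Apod most closely over the 6 arrays, of 13362 genes above background, were Tmem17 (r = 0.9964), Penk (0.9962), Vat1 (0.9947), Abi3bp (0.9943) and Gpnmb (0.993), by Pearson's r as a measure of likeness. Penk encodes the precursor of the enkephalin peptides, Abi3bp a protein of the extracellular matrix, and Gpnmb a membrane glycoprotein of macrophages and other cells. Gpnmb read 5.27, 6.12 and 4.78 with vehicle and 7.05, 7.68 and 7.74 with CL. It was thus low in vehicle replicate 3 and highest of the vehicle arrays in replicate 2, as Apod was, and its log2 difference was 2.10 (adjusted p = 0.0434 from limma). With 1 array left out the adjusted p of Gpnmb lay between 0.0409 (without vehicle replicate 2) and 0.173, and without any other 1 array it did not pass. The call was also lost after quantile normalization (0.0601), cyclic loess (0.0602) and with a replicate block (0.0622). Penk had a log2 difference of 1.06 (adjusted p = 0.0699 from limma), with 7.32, 7.55 and 7.05 with vehicle and 8.08, 8.62 and 8.41 with CL. For Apoc1 the closest genes were Arhgef17 (r = 0.9961), Dlst (0.9959), Ybx3 (0.9944), Rtl8c (0.9926) and Klhl11 (0.9911). Dlst, which encodes a subunit of a tricarboxylic acid cycle enzyme complex, read 6.75, 6.91 and 6.97 with vehicle and 7.49, 7.41 and 7.31 with CL, so that, as for Apoc1, CL replicate 1 was the highest. The log2 differences of these 5 genes lay between 0.42 and 0.58 and none passed (adjusted p 0.128 to 0.204 from limma). All 10 coefficients rest for the most part on the gap between the groups, and the genes were picked as the highest of many. The order of their arrays and their differences between the groups follow largely from that choice. Their adjusted p are therefore given as description and not as separate tests.

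Among 26 other apolipoproteins and related genes tested, of 28 listed, 1 fell (background 0.126%), none rose (background 0.198%) and 25 did not pass. Their median log2 difference was 0.01, against 0.002 for all genes, and 14 of the 26 were at or below background. The gene that fell was Apold1, which encodes a membrane protein of endothelial cells with an apolipoprotein L domain and is not a lipoprotein component. It read 6.63, 6.69 and 6.84 with vehicle and 5.50, 5.47 and 5.82 with CL. All CL arrays lay below all vehicle arrays, with a log2 difference of −1.12 (standard error 0.15; limma, adjusted p = 0.0311). The adjusted p rose to between 0.0782 and 0.13 without any 1 of the 6 arrays and to 0.0642 with a replicate block. Beside it, limma called none of 18 endothelial markers, while 11 were lower at an unadjusted p under 0.05 (background 5.38%). The part of endothelial cells in the Apold1 difference was not tested. Apol10b and Apol11b, of the apolipoprotein L family, gave log2 differences of −1.75 with a standard error of 0.33 (limma, adjusted p = 0.0725) and −0.94 with one of 0.21 (limma, adjusted p = 0.101). Apol10b read 5.52, 6.42 and 6.14 with vehicle and 4.66, 3.55 and 4.63 with CL. It passed when limma fitted a trend (0.0487) or was run on the brighter 50% of genes (0.0484), and its adjusted p ranged from 0.0484 to 0.177 over the limma settings. Apobec1, the enzyme that edits Apob RNA, had a log2 difference of 0.59 (adjusted p = 0.147), and Clu, also called apolipoprotein J, one of 0.10 (adjusted p = 0.859), which was negative after cyclic loess. Saa3, a serum amyloid A protein gene named only after its values were seen, read 6.79, 6.97 and 6.24 with vehicle and 7.54, 8.75 and 7.12 with CL, a log2 difference of 1.14 that did not pass (standard error 0.38, adjusted p = 0.217). At an unadjusted p under 0.05 3 genes of the list were higher and 4 were lower, with backgrounds of 9.4% and 5.38%.

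Among 21 lipocalins and retinoid carriers, the relatives of Apod and Apom, limma called none. An unadjusted p under 0.05 was found for 1 higher (background 9.4%) and 1 lower gene (background 5.38%). The test of the study's methods gave 2 unadjusted and 0 after adjustment, both directions counted together. Over all 22180 genes the same test gave 2608 unadjusted and 0 after adjustment. Of the 21, 12 were at or below background, and the median log2 difference was −0.04. Rbp4, the plasma carrier of retinol, read 5.64, 6.05 and 5.91 with vehicle and 6.69, 6.41 and 6.19 with CL. Its groups did not overlap, and its log2 difference of 0.57 (standard error 0.18, adjusted p = 0.195 from limma) did not pass. Lcn2, which binds bacterial siderophores, varied more within groups than between them, from 4.45 to 6.94 with vehicle and from 4.54 to 7.65 with CL, with replicate 2 highest in both. Orm1, an acute-phase protein gene, spread from 4.41 to 6.50 over the CL arrays (log2 difference −0.58, adjusted p = 0.654).

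Apolipoproteins act through lipases, transfer proteins, receptors and sterol exporters, and most genes of these groups were measured above background. Of 18 genes of lipoprotein lipolysis and remodelling, 1 rose (background 0.198%), none fell (background 0.126%) and 17 did not pass. By unadjusted p there were 3 increases (background 9.4%) and 1 decrease (background 5.38%), and the median log2 difference was 0.13. The gene that rose was Lpl, which encodes lipoprotein lipase, the enzyme that ApoC-II activates and ApoC-I and ApoC-III inhibit. Lpl read 10.12, 10.23 and 10.16 with vehicle and 10.96, 11.01 and 11.03 with CL. The groups were tight and far apart, with a log2 difference of 0.84, or 1.78-fold (standard error 0.13, adjusted p = 0.0415 from limma). The call was lost after quantile normalization (0.0715), cyclic loess (0.0685), averaging of probe sets (0.0718) and with a replicate block (0.102), and without any 1 of the 6 arrays (0.0891 to 0.167). Gpihbp1, which anchors the enzyme on capillary endothelium, read 11.60, 11.96 and 11.78 with vehicle and 11.22, 10.51 and 11.25 with CL. Its log2 difference of −0.79 (standard error 0.22) ran opposite to that of Lpl and did not pass (adjusted p = 0.153). Pltp, which transfers phospholipid between particles, had a log2 difference of 0.50 (adjusted p = 0.168), and Angptl4, an inhibitor of Lpl, one of −0.43 (adjusted p = 0.398).

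None of 26 genes of lipoprotein receptors and uptake passed with limma, and by unadjusted p 7 were higher and 1 was lower, where 9.4% and 5.38% of all genes were. The test of the study's methods gave 7 unadjusted and 0 after adjustment, both directions counted together. Over all 22180 genes the same test gave 2608 unadjusted and 0 after adjustment. The median log2 difference of the list was 0.12. Lrpap1, a chaperone of lipoprotein receptors such as Lrp1, read 7.12, 7.20 and 6.97 with vehicle and 7.79, 7.96 and 7.83 with CL, a log2 difference of 0.77 (standard error 0.14, adjusted p = 0.0693 from limma). The groups did not overlap, and the gene passed when limma fitted a trend (0.0437) or was run on the brighter 50% of genes (0.0484), with a range of 0.0437 to 0.22 over the limma settings. Lrp1, a large receptor for ApoE-bearing particles, had a log2 difference of 0.59 (adjusted p = 0.172). Vldlr, another such receptor and one named only after its values were seen, had one of 0.65 (adjusted p = 0.142). Cd36, the fatty acid and oxidised-lipoprotein receptor, read 11.64, 11.89 and 11.74 with vehicle and 11.32, 10.83 and 11.20 with CL, a log2 difference of −0.65 (adjusted p = 0.141).

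Among 20 genes of sterol efflux and the liver X receptor (LXR), a nuclear receptor for oxysterols that is known to raise Apoe, Apoc1 and Apoc2 in macrophages, limma again called none, while by unadjusted p 4 were higher (background 9.4%) and 0 were lower (background 5.38%). The test of the study's methods gave 4 unadjusted and 0 after adjustment, both directions counted together. Over all 22180 genes the same test gave 2608 unadjusted and 0 after adjustment. The median log2 difference of the list was 0.09. Cyp27a1, a sterol hydroxylase, read 7.27, 7.24 and 6.72 with vehicle and 7.74, 8.03 and 8.25 with CL. Abcg1, a cholesterol exporter to high-density lipoprotein, read 5.54, 5.73 and 5.67 with vehicle and 6.19, 6.26 and 6.35 with CL. In both genes every CL array lay above every vehicle array, with log2 differences of 0.93 (adjusted p = 0.0929 from limma) and 0.62 (adjusted p = 0.095). Abca1, the exporter that loads ApoA-I, had a log2 difference of 0.58 (adjusted p = 0.197). Scd1, a lipogenic LXR target, had one of 0.004 (adjusted p = 0.997), whose sign turned under all 3 scalings tried.

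**Figure D4:**
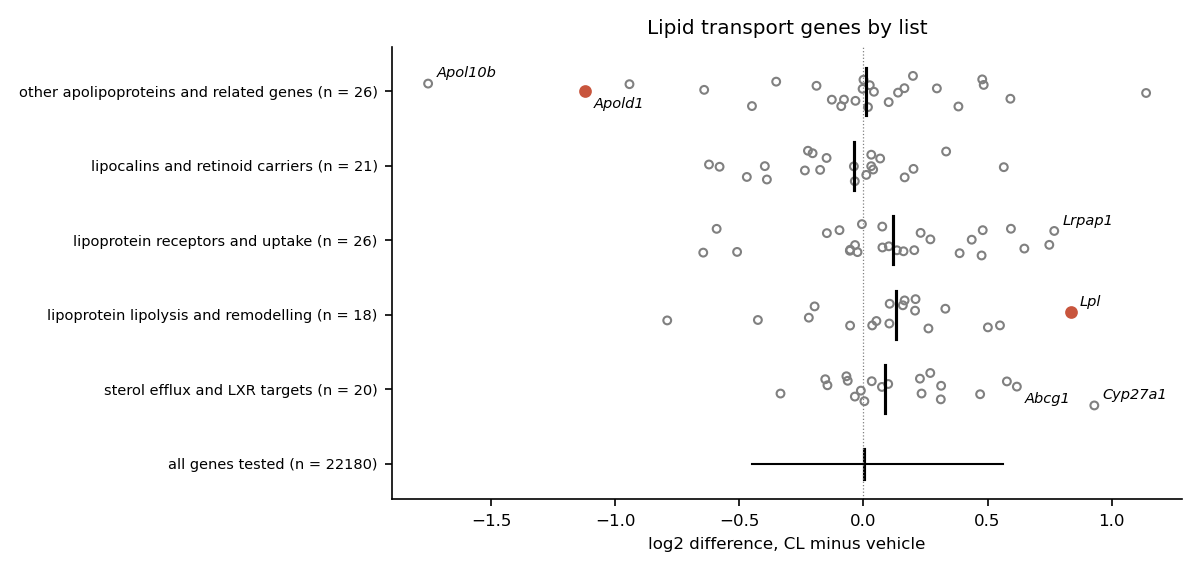
Log2 difference between CL and vehicle (horizontal axis) of each gene in 5 lists around the apolipoproteins, with the list median as a black bar, genes past an adjusted p of 0.05 filled in red and the span from the 5th to the 95th percentile of all 22180 genes (−0.45 to 0.56) in the bottom row. Apold1 and Lpl are the only filled points, and the list medians lie between −0.04 and 0.13.

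Marker genes of several cell types were read on the same arrays. All 18 fibroblast and progenitor, 18 endothelial and 20 macrophage markers were above background. So were all mesothelial, smooth muscle and lymphocyte markers and all but 1 of the 15 adipocyte markers. Presence of these markers therefore cannot tell the labelled SVF from whole fat. Limma called none of the macrophage markers, and by unadjusted p 1 was higher (background 9.4%) and 1 was lower (background 5.38%). Their mean level was 8.95, 8.55 and 8.56 with vehicle and 8.66, 8.88 and 8.73 with CL. The list mean overlapped between the groups, and its part in the Apoc1 difference was not tested. Cd163 had a log2 difference of 0.46 (adjusted p = 0.268) and Cx3cr1 one of −0.82 (adjusted p = 0.214). Of the fibroblast and progenitor markers 10 of 18 were higher at an unadjusted p under 0.05 (background 9.4%) and 1, Mgp, rose (background 0.198%). Mgp had a log2 difference of 0.87 (adjusted p = 0.0383 from limma). Its adjusted p was 0.0795 to 0.155 without any 1 of the 6 arrays, 0.0507 after cyclic loess and 0.0948 with a replicate block. The mean level of the fibroblast and progenitor list was 9.38, 9.33 and 9.42 with vehicle and 9.59, 9.81 and 9.80 with CL. The list did not overlap between the groups, and its part in the Apod difference was not tested.

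Adipocyte markers were present in this fraction, and limma called none of the 15 tested. By unadjusted p 4 were higher (background 9.4%) and 2 were lower (background 5.38%). The means of 9 were higher with CL (background 50.4%) and those of 6 were lower. Adipoq, the adiponectin gene, read 6.65, 7.09 and 7.16 with vehicle and 8.55, 7.72 and 8.36 with CL (log2 difference 1.24, adjusted p = 0.073 from limma), and Plin1 had a log2 difference of 1.44 (adjusted p = 0.0816). Ucp1, Cidea, Adig and Dgat2 had log2 differences of 1.43, 0.72, 0.71 and 0.59. Ucp1 read 3.50, 3.51 and 3.35 with vehicle and 6.54, 4.12 and 3.99 with CL. Pparg, Plin4, Cidec and Fabp4 had log2 differences of −0.71, −0.59, −0.51 and −0.26. The mean of the 15 adipocyte markers was 6.32, 6.66 and 6.40 with vehicle and 7.33, 6.23 and 6.66 with CL. It was highest in CL replicate 1, where Apoc1 and Adipoq were also highest, and lowest in CL replicate 2, where Apod was highest, and its part in either difference was not tested. Without CL replicate 1 the difference of Apoc1 was 1.29 and that of Apod 2.51. The mean of the mast cell markers did not overlap between the groups, nor did 4 of the 10 genes, all with CL above (background 11.2%). This mean was 4.56, 3.95 and 4.22 with vehicle and 5.24, 6.25 and 5.35 with CL. Of the 10 genes 2 rose (background 0.198%), Tpsb2 (log2 difference 3.32, adjusted p = 0.0303 from limma) and Cpa3 (3.09, adjusted p = 0.0404). With 1 array left out Tpsb2 passed only without vehicle replicate 1 (0.0253, otherwise up to 0.14), and Cpa3 did not pass (0.0638 to 0.161). With a replicate block neither passed (0.0638 for Tpsb2 and 0.0937 for Cpa3), nor did Cpa3 after quantile normalization (0.0558) or cyclic loess (0.0507). Of 12 smooth muscle and pericyte markers 2 rose (background 0.198%), Cnn1 (log2 difference 1.95, adjusted p = 0.0203 from limma) and Acta2 (1.21, adjusted p = 0.0291). The list mean ran from 6.73 to 6.86 in the vehicle group and from 7.07 to 7.67 in the CL group. The means of 9 of these genes were higher with CL (background 50.4%) and those of 3 were lower. By unadjusted p 7 were higher (background 9.4%) and 1 was lower (background 5.38%). Rgs5 had a log2 difference of −0.59, with every CL array below every vehicle array (limma, adjusted p = 0.218). With 1 array left out Cnn1 passed only without vehicle replicate 2 or 3 (0.0419 to 0.111), and Acta2 did not pass (0.0573 to 0.111), nor did it with a replicate block (0.062). The endothelial mean was 8.10, 8.63 and 8.21 with vehicle and 8.15, 7.26 and 7.83 with CL. Of 14 hepatocyte markers 10 were at or below background, Alb among them, and the mean of the list overlapped between the groups (3.30 to 3.84 with vehicle, 3.27 to 3.85 with CL). Mesothelial and lymphocyte lists overlapped too, at 6.42 to 6.94 and 5.37 to 5.72 with vehicle and 5.97 to 7.39 and 5.32 to 5.58 with CL. Limma called none of the 12 genes of either. An unadjusted p under 0.05 was found for 0 mesothelial and 2 lymphocyte genes (background 14.8%). The part of the mast cell, smooth muscle and endothelial lists in the differences of Apod and Apoc1 was not tested.

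**Figure D5:**
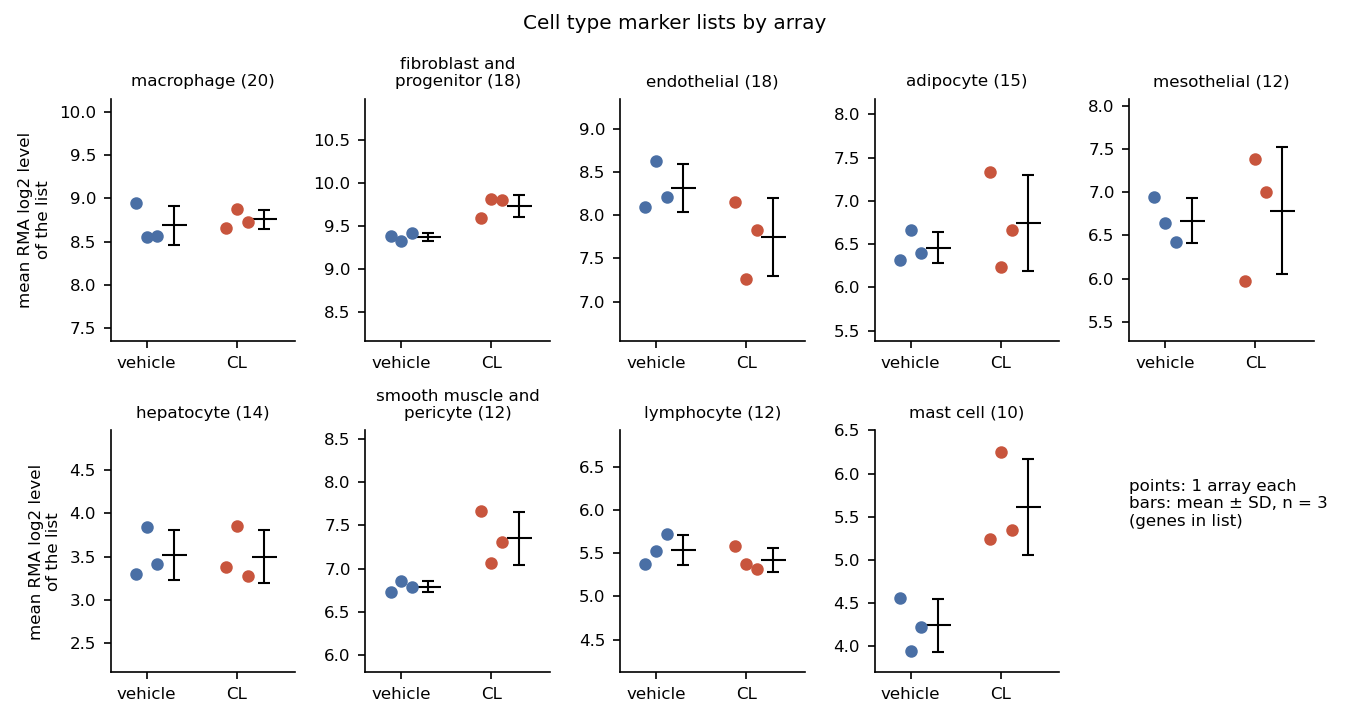
Mean RMA log2 level of the markers of 9 cell types (vertical axis, number of genes in parentheses) on the 3 vehicle arrays (blue) and the 3 CL arrays (red), with the mean ± SD (n = 3), each panel on its own range of 2.8 units. The means of the fibroblast, smooth muscle and mast cell lists were higher on every CL array, though not every gene in them was. Those of the macrophage, adipocyte and hepatocyte lists overlapped.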

How the data were processed

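RNA of the SVF of gWAT was read on 6 Affymetrix Mouse Gene 2.0 ST arrays, 3 vehicle and 3 CL, which were grouped by the labelled treatment. The deposited values are RMA log2 levels, which the authors produced in Affymetrix Expression Console (versions not given in the sources used here). RMA corrects background, quantile-normalizes the arrays and summarises the probes of each set. Such scaling between arrays can hide a change shared by most genes. No further scaling was applied. Of 41345 probe sets, 23521 carry 1 gene symbol in the array annotation, 1820 several and 16004 none. Only the first kind was used. Where a gene had several probe sets (1082 genes), the brightest on average was taken, which left 22180 genes. Each of the 9 genes has 1 probe set. By gene number, 21994 genes matched the RefSeq table of GRCm38.p6, which gave the neighbours and the sequences.

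The groups were compared with limma 3.58.1 in R 4.3.3 (lmFit and eBayes, no trend, two-sided). P-values were adjusted by Benjamini-Hochberg over all 22180 genes, with a threshold of 0.05. Standard errors are from this fit. An exact permutation test of one gene cannot go below p = 0.1 with 3 against 3 arrays. The p-values measure only the spread between these samples. The script was tested on simulated data. The 9 genes, the gene lists and the markers were chosen with earlier results of these data known, and the lists are described by counts and medians without a set test.

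The text names the 9 genes, from each list up to 3 genes past the threshold in each direction and otherwise the 3 with the smallest p, the 2 brightest genes of a list, the 5 genes most correlated with Apod and with Apoc1, and the neighbours on the chromosome. Only part of these is given. The rule does not cover Saa3, Vldlr, Plin4, Cidec, Ucp1, Cidea, Adig and Dgat2, which were added with their values in view. The alternatives were the test of the study's methods (Student) with and without adjustment, an eBayes trend, quantile normalization, median centring, cyclic loess, genes above background, genes above the median level, averaging the probe sets of a gene, a block for the replicate number, and the omission of single arrays. Part of the listed genes is not reported here.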

Additional observations from a re-analysis of the deposited data

How the results depend on the processing

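All 9 genes kept the sign of their log2 difference under every setting in which they were measured, and Apod stayed between 1.97 and 2.59 and Apoc1 between 1.29 and 1.6. Several settings could not have turned a sign. The filters by level, the replicate block and the averaging of probe sets (1 per gene) leave these differences as they were. Leaving out 1 array cannot turn a sign where the groups did not overlap, as for Apod, Apoc1, Apoc2 and Apoa1. Of all 22180 genes, 72 passed (44 higher, 28 lower). The counts were 2608 (1561 and 1047) with the unadjusted Student test of the methods, 0 (0 and 0) with the same test after Benjamini-Hochberg adjustment, 153 (102 and 51) with an eBayes trend and 161 (111 and 50) among genes above the median level. Quantile normalization gave 25 higher and 32 lower and cyclic loess 23 and 30, so the balance of direction turned with the scaling. With 1 array left out, 0 to 31 genes passed, 0 to 14 higher and 0 to 17 lower. Of the 9 genes, 2 passed, against 0 with the adjusted Student test, 1 (Apod) with quantile normalization, 1 (Apod) with cyclic loess and 0 to 1 with 1 array left out. Their median difference of 0.229 was 0.122 with quantile normalization, 0.132 with cyclic loess, 0.261 among genes above the median level and 0.0681 to 0.243 with 1 array left out. The other apolipoproteins, with 1 call, gave 6 (Student, unadjusted), 0 (Student, adjusted), 2 (trend), 2 (above the median level) and 0 to 0 with 1 array left out. The lipolysis genes, with 1 call, gave 5 (Student, unadjusted), 0 (Student, adjusted), 0 (quantile), 0 (cyclic loess), 0 (mean of probe sets) and 0 to 0 with 1 array left out. The receptors, with no call, gave 7 (Student, unadjusted), 1 (trend) and 1 (above the median level), the lipocalins 2 and the sterol genes 4 (both Student, unadjusted). With the replicate number as a block, 15 genes passed (9 higher, 6 lower), with 1 of the 9 genes (Apod), 0 other apolipoproteins and 0 lipolysis genes. The numbers share no stated source, so the replicate block was not taken as a pairing. Deviations of same-numbered arrays correlated at −0.005 to 0.098, and 4 of 6 arrays correlated best with their own number. These values do not settle whether arrays were paired. Signs turned only for values near 0. Clu was −0.0182 with cyclic loess and ran from −0.0999 (without CL replicate 2) to 0.228 with 1 array left out. Lcn2 was −0.0486 with quantile normalization and −0.0647 with cyclic loess, and ran from −1.0 (without CL replicate 2) to 0.726 with 1 array left out. Scd1 was −0.0803 with quantile normalization, −0.0118 with median centring and −0.0869 with cyclic loess, and ran from −0.264 (without CL replicate 1) to 0.332 with 1 array left out. The cause of these shifts was not tested. Signal over background limits Apoc3, Apob, Apom and the CL level of Apoa1.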
